A study of Mus musculus with 46 samples.

Results

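The PD-1cKO tumors were 10 of the 46 samples of the series, and they are described here by how they differed from one another. The genes were taken from 21772 protein-coding genes, of which 12039 had a mean of at least 1 FPKM (fragments mapped to a gene, scaled by transcript length and by all mapped fragments) over the 10 tumors. Each sample was rescaled so that its protein-coding genes summed to the same total, and values are FPKM after that rescaling unless a log2 scale is named. The genes described were chosen by 2 measures of these same tumors, so both measures are given as descriptions and were not tested. The first was the SD of log2(FPKM + 0.1), which gave the 100 most variable genes. The second was Pearson's r with the CD3 score, which is the mean log2 value of Cd3e, Cd3d, Cd3g and Cd247 in each tumor. In all, 1480 of the 12035 genes other than these 4 had an r of at least 0.8 (12.3%) and 1221 had an r of at most -0.8 (10.1%), and they are called positively and negatively correlated genes.

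The study measured RNA in MC-38 tumors, which grow from a mouse colon carcinoma line, after PD-1 was removed by gene deletion or blocked with an antibody. PD-1cKO mice carried ROSA26creERT2 and a floxed Pdcd1 gene, and tamoxifen at 40 mg/kg induced the deletion on 5 consecutive days. Because the Cre was expressed from the ROSA26 locus, the deletion was not limited to T cells. The 10 WT tumors came from littermates given the same tamoxifen, and all of these mice were female and 8 to 10 weeks old. The methods name C57/BL6NTac for wild-type mice. They do not state the background of the PD-1cKO mice and littermates after the cross to ROSA26creERT2 mice. The labels place both groups at day 28, and the methods give an earlier day for this experiment. A further 20 tumors came from WT mice given isotype control or the PD-1 antibody muDX400 at 5 mg/kg. The mice had 1 dose (day 4) or 2 doses (day 8), with 5 tumors in each of the 4 groups. By the dosing schedule in the methods these days count from the first dose, whereas day 28 counts from the implant. The labels number the tumors and do not say more about the animals behind them, so the spread given here is the spread between these samples.

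The 4 genes of the score encode the signaling chains of the T-cell receptor complex. Cd3e, Cd3d and Cd3g encode the epsilon, delta and gamma chains, and Cd247 encodes the zeta chain. T cells need this complex to pass on the recognition of antigen, and Lck and Zap70 are the kinases that act on it first. In a whole tumor the RNA of these genes follows both the number of T cells and the RNA in each, and fewer cells and less RNA per cell cannot be told apart.

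The start regions of the 4 score genes are shown because they define the measure to which every other gene was compared. They are RefSeq sequences of build GRCm38.p6, from 250 bases before to 50 bases after each start, and all 4 genes were found there. The region of Cd3e (ENSMUSG00000032093) is chr9:45009562-45009861 on the minus strand. That of Cd3d (ENSMUSG00000032094) is chr9:44981536-44981835 on the plus strand, beside that of Cd3g (ENSMUSG00000002033) at chr9:44980382-44980681 on the minus strand. That of Cd247 (ENSMUSG00000005763) is on another chromosome, at chr1:165788431-165788730 on the plus strand. Capitals mark the letters GATA on either strand, the core of the motif of GATA factors.
Cd3e: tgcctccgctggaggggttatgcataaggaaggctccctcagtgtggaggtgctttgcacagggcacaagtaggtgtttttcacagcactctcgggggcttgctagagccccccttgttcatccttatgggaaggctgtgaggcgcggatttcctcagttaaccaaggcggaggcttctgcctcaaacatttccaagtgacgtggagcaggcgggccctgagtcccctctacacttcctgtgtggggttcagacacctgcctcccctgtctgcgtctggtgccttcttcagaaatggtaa
Cd3d: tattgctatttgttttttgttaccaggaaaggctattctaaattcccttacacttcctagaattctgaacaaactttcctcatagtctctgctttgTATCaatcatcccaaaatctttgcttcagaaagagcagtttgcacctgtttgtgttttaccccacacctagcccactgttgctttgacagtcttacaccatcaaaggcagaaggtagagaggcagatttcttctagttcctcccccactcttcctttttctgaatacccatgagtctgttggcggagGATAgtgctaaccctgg
Cd3g: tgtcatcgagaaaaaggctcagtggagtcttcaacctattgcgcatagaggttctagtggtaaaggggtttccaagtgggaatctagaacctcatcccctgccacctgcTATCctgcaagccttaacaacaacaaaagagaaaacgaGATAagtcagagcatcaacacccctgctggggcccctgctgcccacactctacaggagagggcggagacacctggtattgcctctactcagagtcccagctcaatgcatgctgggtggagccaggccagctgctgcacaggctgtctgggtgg
Cd247: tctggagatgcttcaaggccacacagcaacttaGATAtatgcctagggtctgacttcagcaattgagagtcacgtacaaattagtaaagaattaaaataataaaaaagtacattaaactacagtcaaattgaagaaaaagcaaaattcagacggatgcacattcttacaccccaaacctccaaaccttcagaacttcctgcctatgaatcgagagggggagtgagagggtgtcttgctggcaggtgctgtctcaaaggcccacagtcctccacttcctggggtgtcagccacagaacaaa
GATA occurred 2 times in the Cd3d region, 2 times in the Cd3g region, 1 time in the Cd247 region and not in the Cd3e region, and 57.9% of 32851 start regions of this length held it. TGTGGT, the core of the RUNX motif, was in none of the 4 on either strand and in 16.8% of the 32851. The GC content was 56.7% for Cd3e, 54% for Cd3g, 43.7% for Cd247 and 42.3% for Cd3d.

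Tumors 4 and 8 stood apart from most of the other 8 over the genes used as a whole. On the log2 scale, these tumors correlated with each other at r = 0.96, and with the other 8 at 0.73 to 0.91. The other 8 correlated with one another at 0.855 or more (median 0.93), so the ranges overlapped. The first principal component held 55.1% of the variance and correlated with the CD3 score at r = 0.88. Among the positively correlated genes, 1472 of 1480 had their highest value in tumor 4 or 8, and 1218 of 1221 negatively correlated genes had their lowest value there. The genes were chosen by r with a score that was itself highest in tumors 4 and 8, so these counts follow largely from the choice. Without these tumors, 412 of the same 12035 genes passed 0.8 (370 of them among the 1480) and 225 passed -0.8 (163 among the 1221). The median r in the other 8 tumors was 0.67 for the 1480 and -0.60 for the 1221, where it was 0.05 over all genes, but these tumors also entered the choice of the genes.

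The libraries also differed in their makeup. Protein-coding genes summed to 275630 FPKM as deposited in tumor 8 and 294610 in tumor 4, against 314170 to 356450 in the others. Short noncoding RNAs took 31.1% of all FPKM in tumor 9 and up to 66.5% in tumor 8. The second principal component, with 19.1% of the variance, followed the GC content of the transcripts (r = 0.91 with each tumor's own relation to GC), and the tumors at its ends were 9 and 10, not 4 and 8. The sample identifiers fall into runs, with tumors 1 to 7 in a first run, tumor 8 in a second with 9 WT tumors, and tumors 9 and 10 in the last with 1 WT tumor. Within the first run alone, with the limit of 1 FPKM applied to the mean of its tumors, 1171 genes passed 0.8 (979 of the 1480) and 1211 passed -0.8 (867 of the 1221). Genotype and run cannot be told apart for the first 7 tumors, because no WT tumor shares their run.

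Of the 3 library measures, the protein-coding sum went with the CD3 score at r = -0.75 (2-sided permutation test, p = 0.0138, adjusted over 3 measures 0.0414). Its Spearman rho was -0.49 (permutation p = 0.156, adjusted 0.156). Without tumors 4 and 8, the ones farthest from the median sum, r was -0.0513, and within the first run it was -0.48, so this relation rests on those tumors. The score was computed after each sample was scaled by this same sum, so a negative relation is partly built in. With values as deposited, r was -0.67 (permutation test, adjusted p = 0.108). For the short noncoding share, r was 0.49 (permutation p = 0.153, adjusted 0.197) and rho was 0.49 (p = 0.155 by permutation, adjusted 0.156). Without tumors 8 and 9, the farthest from the median, r was 0.50. The first run gave 0.63, and the 8 tumors other than 4 and 8 gave -0.15. For the mitochondrial share of protein-coding FPKM (0.392% to 1.38%), r was 0.45 (permutation p = 0.197, adjusted 0.197) and rho was 0.59 (p = 0.0824 by permutation, adjusted 0.156). Without tumors 8 and 9 that r was 0.46, and within the first run it was 0.28. The part of these measures in the results was not tested.

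All 4 CD3 chains were lowest in tumors 2, 3 or 10 and highest in tumor 8. Cd3e was 2.18 FPKM in tumor 10, had a median of 6.23 and reached 13.3 in tumor 4 and 19.1 in tumor 8. Cd3g ran from 4.57 in tumor 3 through a median of 10.2 to 22.4, and Cd3d from 2.42 through 3.27 to 7.55. The zeta chain gene Cd247 had the widest range as a fold, from 1.197 in tumor 3 through a median of 3.44 to 16.8. The score itself was 2.12, 1.87, 1.59, 3.43, 2.37, 2.60, 2.70, 3.94, 2.51 and 1.61 in tumors 1 to 10 (mean 2.48 ± 0.76 SD, n = 10). The highest tumor was thus 5.11-fold above the lowest, and 2.16-fold among the 8 tumors other than 4 and 8.

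WT tumors covered a lower range of the score, from 0.22 to 1.97 (median 0.55, SD 0.52), and their highest tumor lay above the 3 lowest PD-1cKO tumors. Genes of the receptor itself, which are not in the protein-coding class, are a further measure of the same cells. The alpha constant gene Trac ran from 3.31 through a median of 4.33 to 9.32 FPKM, with an r of 0.87. The beta constant genes Trbc1 (1.69 to 70.8, median 10.1) and Trbc2 (8.26 to 62.2, median 16.3) had r of 0.92 and 0.95. Trdc, of the receptor of gamma-delta T cells, stayed between 0 and 0.309 FPKM.

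**Figure D1:**
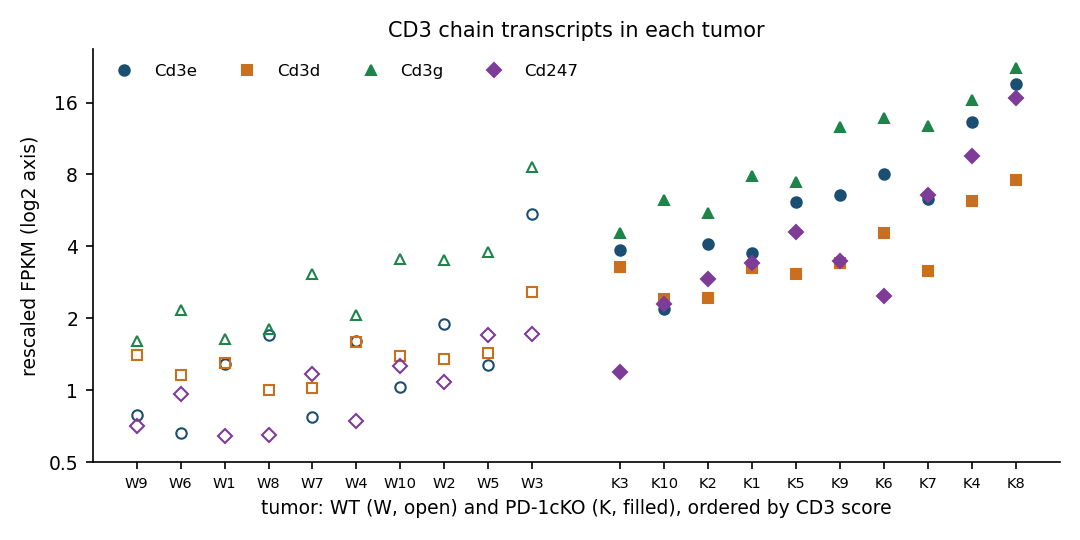
FPKM of Cd3e, Cd3d, Cd3g and Cd247 (1 marker shape each, log2 axis) in each of 10 WT tumors (W, open) and 10 PD-1cKO tumors (K, filled), ordered within each group by the CD3 score. The PD-1cKO tumors end with tumors 4 and 8, which reach 13.3 and 19.1 FPKM for Cd3e, above every WT tumor (at most 5.45).

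Among the genes whose values lay closest to the score were Nlrc3 (r = 0.99), Gimap3 (0.99) and Galnt15 (0.99), with Pdcd1 (0.99) and Nrp1 (0.98), over 10 tumors. Gimap3, a GTPase gene of lymphocytes, ran from 3.57 FPKM through a median of 8.04 to 33.0. Pdcd1 itself ran from 5.12 through 8.15 to 23.8 FPKM, against 1.57 to 6.56 in WT tumors. Only exons 2 and 3 were floxed, so a value for the whole gene does not check the deletion.

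Genes of T-cell signaling went with the score as a group. All 15 of the 15 measured genes (of 16 listed) passed 0.8, with a median r of 0.92, against 12.3% of all genes, and 6 did so without tumors 4 and 8 (median 0.72). Lck ran from 6.02 in tumor 2 through 12.7 to 45.2 FPKM in tumor 8. The costimulatory receptor gene Cd28 ran from 0.77 through 1.32 to 6.16, with 5.03 in tumor 4, and its r was 0.97 in the 10 tumors and 0.91 in the 8. Bcl11b, a transcription factor gene of the T lineage, ran from 0.988 through 1.68 to 9.09 FPKM and was also 5.62 in tumor 4. Zap70 varied less, from 3.79 through 6.50 to 18.7, and its r was 0.85, or 0.51 without tumors 4 and 8.

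Among 16 measured genes of CD8 T cells and cytotoxicity, 11 passed 0.8 (median r 0.89) and 7 without tumors 4 and 8 (0.78). The coreceptor gene Cd8a was 6.00 FPKM in tumor 3, 13.3 at the median and 29.9 in tumor 8, with r = 0.97. Cxcr6, a chemokine receptor gene of tissue T cells, spanned 4.59 to 61.9 (median 12.9), and Nkg7, of cytotoxic granules, 12.7 to 70.7 (median 23.7). Both had an r of 0.97. The granzymes were uneven: Gzmk ran from 0.704 to 10.6 FPKM with r = 0.96, whereas Gzmb ran from 4.95 to 16.5 with r = 0.65, and Gzma was highest in tumor 4 (13.2) and only 4.79 in tumor 8, with r = 0.50. Perforin (Prf1) was above every WT tumor in all 10, from 8.29 through 10.8 to 24.2, with r = 0.76. Ifng, the effector cytokine gene, stayed between 1.04 and 3.92 FPKM, was highest in tumor 9 and had an r of 0.57, or 0.78 without tumors 4 and 8. About 19.9% of its 50-base stretches and 38.6% of those of Klrc1 (r = 0.95) also occur in other genes, so these values are uncertain.

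Genes of CD4 and regulatory T cells passed 0.8 in 4 of 6 measured cases (median r 0.83) and those of coinhibitory receptors in 4 of 6 (0.91). Without tumors 4 and 8 these counts were 0 and 3, with medians of 0.51 and 0.74. Cd4 ran from 2.37 through 3.49 to 12.2 FPKM (r = 0.86), and Il2ra, the alpha chain of the interleukin-2 receptor, from 0.463 through 1.14 to 1.78 (r = 0.42), with its highest value in tumor 6. Tigit ran from 1.80 through 4.24 to 12.6 (r = 0.93), whereas Havcr2 was highest in tumor 9 (12.9) with r = 0.59. Lag3 was above every WT tumor in all 10 (8.59 to 28.9), yet its r was 0.71, and 0.15 without tumors 4 and 8. Of 4 measured NK cell genes 3 passed 0.8, or 2 without tumors 4 and 8, and Klra4 went the other way. It was 2.74 and 1.58 FPKM in tumors 4 and 8, and 12.9 to 31.2 in the others, which is an r of -0.77, or 0.39 in the 8.

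**Figure D2:**
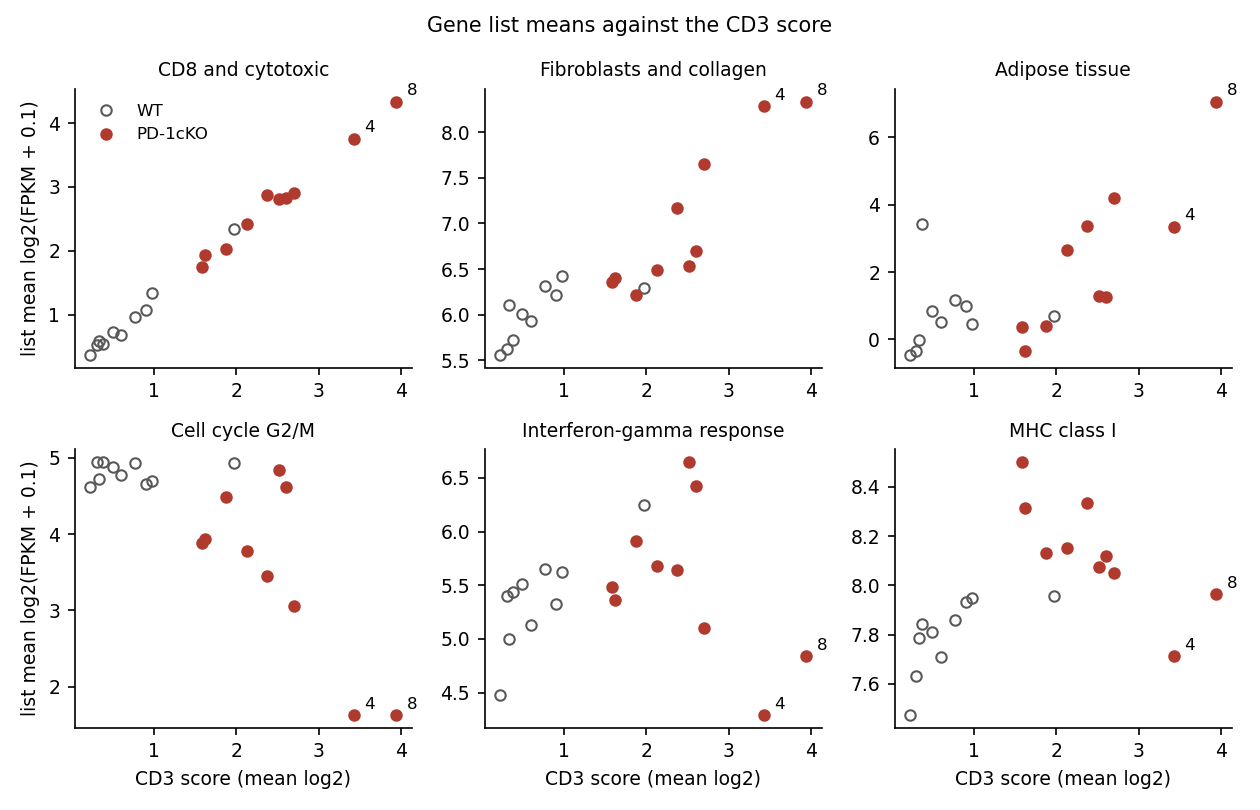
Mean log2(FPKM + 0.1) of the genes of 6 lists against the CD3 score, 1 point per tumor, with PD-1cKO tumors filled, WT tumors open, and PD-1cKO tumors 4 and 8 numbered. Tumors 4 and 8 lie at scores of 3.43 and 3.94 at the right of every panel, above the other PD-1cKO tumors for the cytotoxic and fibroblast lists and below them for the G2/M, interferon-gamma and MHC class I lists. For MHC class I tumor 4 (7.71) lies within the WT range of 7.47 to 7.96 and tumor 8 (7.97) just above it, and for the adipose list only tumor 8 stands above all others.

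Macrophage and monocyte genes were less tied to the score than T-cell genes, with 3 of 13 past 0.8 (median r 0.68, or 0.27 without tumors 4 and 8). The F4/80 gene Adgre1 was 97.1 and 100 FPKM in tumors 4 and 8 and 34.1 to 75.1 in the others. Mrc1, of tissue macrophages, was instead highest in tumor 3 (114, range from 33.1), with r = 0.18. Dendritic cell genes passed in 4 of 9 cases (median r 0.80), and in none without tumors 4 and 8 (0.56). Clec9a and Flt3 had r of 0.86 and 0.89, whereas Fscn1 was 30.4 and 33.9 FPKM in tumors 4 and 8 against 60.8 to 92.4 in the others (r = -0.82). Of 4 measured genes of B and plasma cells 2 passed (median r 0.79), among them the joining chain gene Jchain, and none did without these tumors (0.48). Jchain was 55.5 FPKM in tumor 4 and 39.7 in tumor 8 against 0.692 to 14.8 in the others.

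Neutrophil genes set another tumor apart. The 7 measured genes of neutrophil granules had no member past 0.8, and their mean log2 value was 4.39 in tumor 7, 2.89 in tumor 4, 2.34 in tumor 8 and -0.54 to 0.93 in the others. Their summed FPKM was instead highest in tumor 4 (368), with 213 in tumor 6 and 181 in tumor 7. The list member Chil3 was also highest in tumor 4. S100a8, an alarmin gene of neutrophils, was 157 FPKM in tumor 7, 38.3 in tumor 4, 36.7 in tumor 8 and 1.27 to 4.70 in the other 7. The antimicrobial peptide gene Camp was 34.9 in tumor 7 and from 0.289 to 5.55 elsewhere. Of the 6 other neutrophil genes measured, S100a8 among them, 2 passed 0.8 and 1 passed -0.8 (median r 0.68), and 1 passed 0.8 without tumors 4 and 8 (0.72). Csf3r, the receptor gene for G-CSF, ran from 2.40 through 4.30 to 12.7 FPKM with r = 0.90, or 0.79 in the 8. S100a9, which encodes the partner of S100a8, reached 119 FPKM in tumor 7 with r = 0.83, and 0.81 in the 8.

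Stromal and vascular genes were also high where T-cell genes were. Fibroblast and collagen genes passed 0.8 in 6 of 10 cases (median r 0.83), and in 3 without tumors 4 and 8 (0.56). Col1a1 was 3583 and 3338 FPKM in tumors 4 and 8, 2269 in tumor 7, 2158 in tumor 5 and 643.7 to 1191 in the other 6, and every PD-1cKO tumor lay above every WT tumor (at most 608.4). Fap, of activated fibroblasts, ran from 1.13 through 3.61 to 15.6 with r = 0.98, and 0.93 in the 8. Of 7 endothelial genes 3 passed, and 4 did so without tumors 4 and 8, where the median r was 0.85. Tek, an angiopoietin receptor gene, ran from 0.363 in tumor 10 through 1.19 to 3.58 in tumor 4. The vascular cadherin gene Cdh5 ran from 3.85 through 8.72 to 16.3, and r was 0.88 in the 10 tumors and 0.87 in the 8.

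Genes of blood and fat were high in tumor 8 above all. Red blood cell genes passed in 3 of 4 cases (median r 0.81), and in none without tumors 4 and 8 (0.43). The beta globin gene Hbb-bs was 247 FPKM in tumor 8, 104 in tumor 4 and 19.5 to 87.8 in the others. Adipose genes passed in 8 of 9 cases (median r 0.85), and in 2 without tumors 4 and 8 (0.70). Plin1, which coats fat droplets, was 101 FPKM in tumor 8 and 0.237 to 11.3 in the other 9. The adiponectin gene Adipoq was 103 in tumor 8 and at most 16.5 elsewhere. These groups moved with the T-cell genes in the same tumors, and their part in the results above was not tested.

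Cell cycle genes were low in tumors 4 and 8. Of 11 genes of the G1/S phase 8 passed -0.8, against 10.1% of all genes, with a median r of -0.83, and of 10 genes of G2/M 5 did (-0.74). Without tumors 4 and 8 the medians were -0.21 and -0.10, and 1 and 0 genes passed. The topoisomerase gene Top2a was 11.2 and 11.5 FPKM in tumors 4 and 8, 43.1 in tumor 7 and 54.0 in tumor 5, and 86.4 to 160 in the other 6, against 136 to 178 in WT tumors. Cdk1, the mitotic kinase gene, was 12.1 and 10.1 in these tumors and 31.0 to 57.2 in the others, all below the WT range of 59.0 to 91.1. Mcm2, of the replication helicase, was the G1/S gene that kept its relation in the 8 (r = -0.82). It was 9.08 and 8.60 FPKM in tumors 4 and 8 and 27.6 to 40.5 in the others.

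Genes of glycolysis and hypoxia passed -0.8 in 7 of 12 cases (median r -0.81), and in none without tumors 4 and 8 (-0.38). The glucose transporter gene Slc2a1 was 33.6 and 20.9 FPKM in tumors 4 and 8 and 81.3 to 169 in the others. Car9, a carbonic anhydrase gene induced by low oxygen, was 3.46 and 1.54 there and 13.8 to 36.3 elsewhere. The lactate dehydrogenase gene Ldha was 339 and 254, against 639 to 829 in the others. Its r was -0.93, and in the 8 it was -0.797, just short of the limit. Ribosomal protein genes passed -0.8 in 13 of 77 cases (median r -0.35, or -0.02 in the 8), against 10.1% of all genes. Replication-dependent histone genes did so in 2 of 61 cases, which is below that share.

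Among the genes with the lowest r were Atad3a (-0.98), Tcam1 (-0.97) and Trim28 (-0.97). Atad3a, of the mitochondrial inner membrane, was 12.7 and 11.6 FPKM in tumors 4 and 8 and 20.7 to 35.6 in the others, and its r was -0.96 without those tumors. Extl1, a glycosyltransferase gene, had the same order as the score reversed (rho = -1), from 18.99 FPKM in tumor 3 to 0.402 in tumor 8.

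Interferon and antigen presentation genes did not follow the T-cell genes over the 10 tumors. Of 14 interferon-gamma response genes 1 passed 0.8, Ciita (r = 0.82), and the median r was -0.47. Without tumors 4 and 8 that median turned to 0.29. The chemokine gene Cxcl10 was 5.51 and 7.80 FPKM in tumors 4 and 8 and 34.4 to 119 in the others, within which tumor 9 was highest. Gbp2, an interferon-induced GTPase gene, was 80.4 and 98.1 in these tumors and 207 to 548 in the others (r = -0.75, or 0.03 in the 8). Cxcl9 differed from these, with 11.3 in tumor 4, 31.9 in tumor 8 and 19.5 to 98.2 in the others (r = -0.03). Cd274, the PD-L1 gene, ran from 11.2 in tumor 10 through 23.9 to 49.8 in tumor 9, with r = 0.07. Type I interferon genes had none past either limit (median r -0.60, or -0.21 without tumors 4 and 8). In WT tumors the median r was 0.73 for the interferon-gamma genes and 0.51 for the type I genes. WT tumor 3 had the highest score there (1.97) and the highest mean log2 value of both lists (6.25 and 4.44). The part of that tumor in these medians was not tested.

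MHC class I genes had 2 of 9 past -0.8, Tap1 and Psmb8, with a median r of -0.68 (-0.39 with median-of-ratios scaling) and -0.61 without tumors 4 and 8. Tap1, of the peptide transporter, was 106 and 144 FPKM in tumors 4 and 8 and 182 to 297 in the others. The heavy chain gene H2-K1 varied little, from 1479 through 1969 to 2455. None of the 6 MHC class II genes passed either limit (median r 0.50, or -0.07 without tumors 4 and 8). H2-Aa was 1682 and 1909 FPKM in tumors 4 and 8 and 796.6 to 1368 in the others, and its r was 0.79, or 0.33 in the 8.

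**Figure D3:**
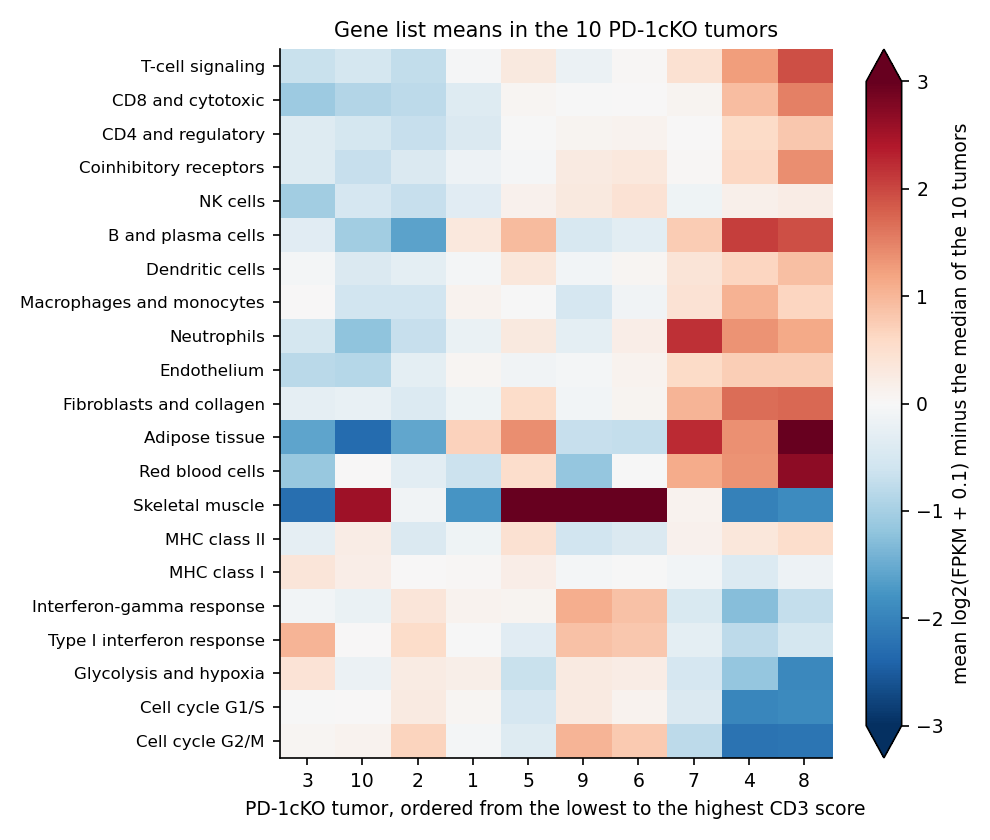
Mean log2(FPKM + 0.1) of each gene list drawn in each PD-1cKO tumor, as the difference from the median of the 10 tumors. Not every list is drawn, tumors are ordered by the CD3 score, and colors are limited to 3 in either direction. Tumors 4 and 8, at the right, are high for T-cell, stromal and vascular lists and low for cell cycle and glycolysis lists. Tumor 7 is highest for the neutrophil list, which does not hold the granule genes.

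WT tumors were not used to choose the genes, so the same relation could be tested there. A slope on the CD3 score was fitted over the 10 WT tumors with limma for 11595 genes, and 23 genes rose with the score (0.198%) at an adjusted p under 0.05. None fell, and 1468 had an unadjusted p under 0.05. Of the positively correlated genes 1143 were tested and 16 rose (1.40%), and of 1220 negatively correlated genes tested none fell or rose. By direction alone, 1385 of the 1480 had an r above 0 in WT tumors (median 0.53, against 0.23 over all genes), and 777 of the 1221 had an r below 0 (median -0.15). Among genes tested there, the slope was above 0 for 93.4% of the positively and 36.3% of the negatively correlated genes, against 67.0% of all 11425 of the genes used. Of the 23 genes that rose, 21 also had an r above 0 in PD-1cKO tumors, and Krt42 (-0.76) and Gbp4 (-0.32), named here after their values were seen, did not.

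Of the 12 genes of CD8 T cells and cytotoxicity that were tested in WT tumors, 8 rose. Cxcr6 was 1.49 to 10.0 FPKM there (median 2.48) and had a slope of 1.45 ± 0.15 (SE) log2 units per unit of the score (limma, adjusted p = 0.002). The slope of Klrd1, a lectin receptor gene, was 1.55 ± 0.18 and that of Cd8a 1.29 ± 0.17 (limma, adjusted p = 0.0047 and 0.0092). Gzmb rose with a slope of 1.39 ± 0.20 (limma, adjusted p = 0.016), although its r in PD-1cKO tumors was 0.65. Cd274 rose as well, with a slope of 1.18 ± 0.17 (limma, adjusted p = 0.016), and its r was 0.91 in WT and 0.07 in PD-1cKO tumors. That difference was not tested. Pdcd1 missed the limit (slope 0.86 ± 0.19, adjusted p = 0.074 with limma). None of the tested genes of fat, fibroblasts, endothelium or the cell cycle passed, where 0.198% of all genes did. The list means of fibroblast and endothelial genes still had r of 0.68 and 0.78 with the score in WT tumors. Those of the adipose, G1/S and G2/M lists had r of 0.07, -0.10 and 0.18. WT tumor 3 had the highest score (1.97), and without it 97 genes rose and 13 fell.

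Tumors of the antibody experiment gave a further test, within groups. With all 20 tumors 6599 of 11644 genes rose with the score, and in isotype 1-dose tumor 1 mitochondrial genes took 71.0% of the protein-coding FPKM. Without that tumor, and with mitochondrial genes out of the rescaling, 344 of 11735 genes rose (2.93%) and 64 fell (0.545%) in limma, with 1768 at an unadjusted p under 0.05. Of 1183 positively correlated genes tested 193 rose (16.3%) and 1 fell, and of 1212 negatively correlated genes tested 20 fell (1.65%) and none rose. T-cell signaling genes rose in 10 of 10 tested cases, cytotoxic genes in 13 of 14, coinhibitory receptors in 5 of 5 and MHC class II genes in 6 of 6. Pdcd1 had a slope of 1.11 ± 0.09 (limma, adjusted p = 9.3e-07) and H2-Aa of 0.79 ± 0.07 (limma, adjusted p = 1.2e-06). Of the fibroblast, endothelial and adipose genes none rose or fell, and the median r of the fibroblast genes was -0.27. Nrp1, at r = 0.98 in PD-1cKO tumors, had a slope of -0.11 ± 0.22 (limma, adjusted p = 0.87), and Fap -0.33 ± 0.18 (limma, adjusted p = 0.41). Short noncoding RNA took at most 0.0817% of the FPKM in these libraries, against at least 31.1% in PD-1cKO tumors.

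PD-1cKO tumors were also compared with WT tumors for the same genes. In limma, 737 of 12209 genes were higher (6.04%) and 291 lower (2.38%), at an adjusted p under 0.01 and 2-fold. The positively correlated genes were among the higher ones in 455 of 1480 cases and among the lower in none, and 35 of the 1221 negatively correlated genes were lower. The same PD-1cKO tumors chose these genes and entered this comparison, so the counts are not independent of the choice. Without tumors 4 and 8 there were 337 higher and 64 lower genes, with 203 of the 1339 positively correlated genes tested among the higher and 6 of the negatively correlated genes among the lower. T-cell signaling genes were higher in 14 of 15 cases, and in 12 of 14 without these tumors. Top2a missed the limit at -1.38 ± 0.40 (SE) on the log2 scale (limma, adjusted p = 0.010), with 9 of 10 tumors below every WT tumor, and the G2/M genes were lower in 6 of 10 cases, or in 2 without tumors 4 and 8.

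Genes of skeletal muscle and fat were prominent among the 100 most variable genes, with all 11 listed genes of the first and 7 of 9 measured genes of the second. The muscle actin gene Acta1 had the largest SD (3.84 on the log2 scale), followed by the troponin gene Tnnc2 (3.63). Acta1 was 279 FPKM in tumor 5, 68.0 in tumor 9, 58.0 in tumor 6, 55.3 in tumor 10, 8.99 in tumor 7, 3.32 in tumor 2 and 0.103 to 0.694 in tumors 1, 3, 4 and 8. The muscle creatine kinase gene Ckm had the same 4 highest tumors, with 212 in tumor 5 and 0.129 in tumor 3. None of the 11 passed either limit. Their median r was -0.15 over the 10 tumors, but 0.48 without tumors 4 and 8 and 0.43 in WT tumors. They varied in WT tumors too, where Acta1 ran from 0.0635 through 30.5 to 111.

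Tumor 8 held the highest value of 45 of the 100 genes, tumor 5 of 30, tumor 7 of 7, and the other 7 tumors of 18. Genes of fat were high in tumor 8: Cfd, which encodes adipsin, was 1104 FPKM there, 161 in tumor 7 and 3.54 to 53.5 in the others, and Cidec was 141 there and 0.155 to 14.2 elsewhere. Both had SDs of 2.74 and 2.81. The 7 genes highest in tumor 7 included the neutrophil genes Camp, Ngp, Ltf, S100a8 and S100a9. Ccl21a, a chemokine gene of lymphatic vessels and lymph nodes, was 67.0 and 67.1 FPKM in tumors 7 and 8 and 0 to 16.02 in the others. Of its 50-base stretches 71.6% occur in other genes, as do 98.8% of those of mt-Nd4l and 98.8% of those of Gm20388, 89.6% of those of Mup18 and all of those of Mup22, so their values and SDs are uncertain.

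At the limit of the 100, Rbp4 (SD 1.92) and Tmem74 (1.92) were inside and Slc6a15 (1.92) and Cyp2f2 (1.91) outside. At r of 0.8, Acer3 and Ddhd1 (both 0.80) were just inside and Rad51d (0.80) just outside, and at -0.8 the nearest genes were Eif2b3 (-0.80) inside and Rer1 (-0.80) outside. Of the 100 genes 33 were among the positively and 7 among the negatively correlated ones. Their transcripts were short, with a median of 1539 bases against 3411 over all genes, and the negatively correlated genes had a median GC content of 53.3% against 49.8%.

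**Figure D4:**
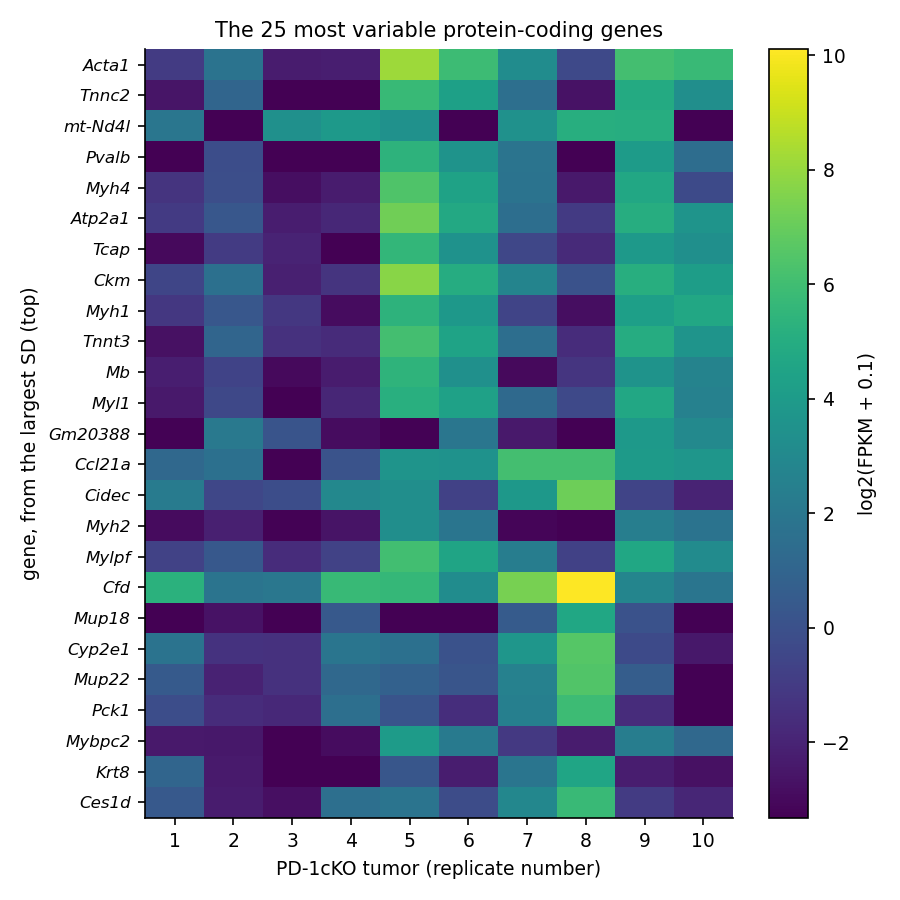
Log2(FPKM + 0.1) as color for the 25 most variable protein-coding genes (from the largest SD at the top) in the 10 PD-1cKO tumors. Muscle genes such as Acta1 are brightest in tumor 5 (279 FPKM), with tumors 6, 9 and 10 next, and genes of fat such as Cfd in tumor 8 (1104 FPKM).

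The PD-1cKO tumors differed more from one another than the WT tumors did. The root mean square distance of a tumor from the mean of the others of its group, over 11429 genes on the log2 scale, was 0.63 ± 0.17 (SD, n = 10) in PD-1cKO and 0.33 ± 0.10 (n = 10) in WT tumors. It ran from 0.39 to 0.95 and from 0.21 to 0.52, so the groups overlapped. The difference was 0.30 (2-sided permutation test, p = 1.40e-04), and 0.20 without tumors 4 and 8 (permutation p = 0.00215). Each distance was taken from the mean of the other tumors, so the values of a group are not independent. The permutation treats them as if they were, and its p-values are only a guide. The SD was larger in PD-1cKO than in WT tumors for 91.0% of genes, and for 83.8% without tumors 4 and 8. These shares are of the 12039 genes filtered on the PD-1cKO tumors alone, not of the 11429 used for the distance. Genes that passed only through high values in some PD-1cKO tumors are included, which favors a larger SD there. The shares are therefore descriptions and were not tested. Pairs of PD-1cKO tumors correlated at a median r of 0.91, and the closest pair, tumors 6 and 9, at 0.98. Those libraries shared 0.0201% identical values, so they were kept as separate samples. Pairs of WT tumors correlated at 0.94 to 0.99. Since 9 WT tumors share 1 run of identifiers and the PD-1cKO tumors span 3, run and genotype cannot be told apart in this comparison.

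**Figure D5:**
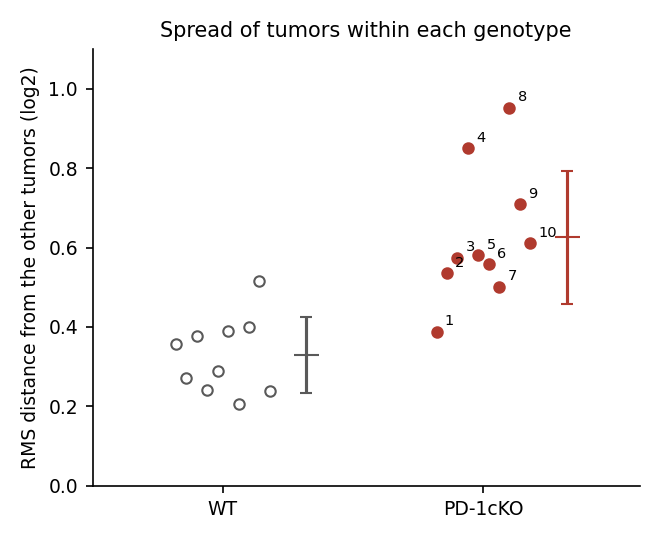
Root mean square distance of each tumor from the mean of the others of its group (log2 units), 1 point per tumor with PD-1cKO tumors numbered, and the group mean with SD to the right of the points. PD-1cKO tumors lie at 0.39 to 0.95 with tumor 8 highest and tumor 4 next, and WT tumors at 0.21 to 0.52.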

How the data were processed

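RNA was measured in 46 samples, and the 10 PD-1cKO, 10 WT and 20 antibody-experiment tumors were used, grouped by the replicate group in their labels. The methods describe stranded total RNA libraries depleted of ribosomal RNA, read for 50 bases from both ends, and name no difference between the experiments. The short noncoding share given above still differed widely between the antibody and PD-1cKO libraries, and the reason was not tested. The authors used Omicsoft Array Studio with its OSA aligner (mouse build B38, Ensembl annotation). The deposited values are FPKM, computed by the authors from fragments scaled by transcript length and mapped fragments. The depth per sample cannot be taken from FPKM, so precision is the spread between tumors. The authors tested counts with DESeq2, which FPKM does not allow.

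Of 48795 gene identifiers 99.3% matched GENCODE M21. Each sample was multiplied so that its protein-coding genes summed to the median of the 10 PD-1cKO tumors, and 0.1 FPKM was added before the log2. A fold change on this scale understates the change of low genes. Pearson's r and the SD were computed where the mean reached 1 FPKM. Slopes on the CD3 score, without the 4 score genes, and the difference of PD-1cKO and WT tumors were tested in R 4.3.3 by limma 3.58.1 (lmFit and then a trended eBayes), filtered at a mean of 1 FPKM, and adjusted with the Benjamini-Hochberg method over all genes tested. An adjusted p under 0.05 was needed for slopes, and under 0.01 with a 2-fold change for the difference. The antibody fit had the group as a factor. Permutation tests used 100000 resamples (scipy 1.17.1). On simulated data for the WT slopes, 200 of 11595 genes were given slopes of 1.5 in size. The fit recovered 97% of them, and 7.62% of its 210 calls were false. The median slope in WT tumors was 0.29 for the positively and -0.05 for the negatively correlated genes. The simulation therefore does not show how many slopes of that size the fit would find.

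The members and lists were chosen with earlier results of these data known. The genes named are the 4 score genes, the 25 with the largest SD, the 15 at each end of the order by r, genes of the lists, T-cell receptor constant genes and genes the study names for these samples. Some of them are not reported here. Start regions are from RefSeq. Python 3.11.15, numpy 2.4.6, pandas 2.3.3 and matplotlib 3.10.9 were used. Alternatives were 1 FPKM added, values as deposited, median-of-ratios scaling, rescaling without mitochondrial genes, a filter at 5 FPKM or none, Spearman's rho, a score without Cd247, no trend, the first run only, the replicate number as a block and leaving out each tumor. Leaving out tumors 4 and 8, and isotype 1-dose tumor 1 together with mitochondrial genes, was added after seeing the data.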

Additional observations from a re-analysis of the deposited data

Results flagged for a closer look

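Among 92 values tested in the 10 PD-1cKO tumors, 1 had a single tumor far from the others. That is no more than chance, which would mark about 1 in 20. Mup18, of the major urinary proteins, was 25.6 FPKM in tumor 8 and at most 1.36 in the other 9. Its gap to the next tumor was 0.516 of the whole range on the log2 scale, on which tumor 8 was 4.68 and the others -3.32 to 0.55. Of its 50-base stretches 89.6% occur in other genes, so the value is uncertain.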

How the results depend on the processing

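Depth is unknown from FPKM, and 10 tumors of 1 genotype in unequal runs limit each r. The number of genes at r of at least 0.8 was 1480, and it was 874 with a filter at 5 FPKM, 930 with Spearman's rho (855 of them shared), 365 without tumors 4 and 8 (the filter on the mean applied to the 8), and 834 (without tumor 8) to 1975 (without tumor 3) when 1 tumor was left out. At most -0.8 there were 1221, with 593 by Spearman's rho (544 shared), 227 without tumors 4 and 8, and 715 to 1541 when 1 tumor was left out (tumors 8 and 9). Of the 100 most variable genes, 60 were kept with 1 FPKM added and 51 with a filter at 5 FPKM. The protein-coding sum went with the score at -0.67 as deposited (permutation test, adjusted p = 0.108, past the threshold no longer), -0.0513 without tumors 4 and 8, and -0.84 to -0.53 with 1 tumor left out, and 5 of those 10 missed the threshold. The short noncoding share turned to -0.15 without tumors 4 and 8 and was 0.26 to 0.67 with 1 left out, and the mitochondrial share was 0.33 to 0.67. In both the value without tumor 9 passed the threshold. The 23 genes that rose in WT tumors were 60 with 1 FPKM added, 13 with median-of-ratios scaling, 0 with a filter at 5 FPKM, 6 with no filter, 11 with a score without Cd247, 46 without a trend, and 9 (without tumor 10) to 97 (without tumor 3) with 1 tumor left out. None fell, 1 as deposited, and 0 to 13 with 1 left out. The 6599 genes that rose in the antibody experiment were 650 with 1 FPKM added, 3929 as deposited, 319 with median-of-ratios scaling, 336 without mitochondrial genes, 4092 without Cd247, 344 with isotype 1-dose tumor 1 and mitochondrial genes left out, and 344 to 8740 with 1 tumor left out. The 15 that fell were 1 with 1 FPKM added, 31 with median-of-ratios scaling, 29 without mitochondrial genes, 41 with no filter, 64 with that tumor and those genes left out, and 12 to 62 with 1 left out. Higher genes in PD-1cKO against WT tumors were 409 in place of 737 with 1 FPKM added, 438 with a filter at 5 FPKM and 337 without tumors 4 and 8. Lower genes were 146 in place of 291 with 1 FPKM added, 517 as deposited, 193 with median-of-ratios scaling and 64 without tumors 4 and 8. The median difference over all genes was -0.08, -0.22 as deposited and 0.03 with median-of-ratios scaling, and the median r with the score was 0.02, -0.20 and 0.11. With the replicate block there were 607 higher and 214 lower genes. The numbers only name the tumors, since 3 of 10 same-numbered pairs had deviations correlated above 0.1 and 0 of 10 tumors correlated best with their own number. The difference in distance kept its direction and side of the threshold (0.20 to 0.33) with 1 FPKM added, other scalings and filters, 1 PD-1cKO tumor left out, and tumors 4 and 8 left out. It was not computed within the first run, which holds no WT tumor. The r of single genes was within the spread in 464 cases, moved in 123 and turned in 0, and their SD in 369, 47 and 0. Causes of these shifts were not tested.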

Other observations

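Of 10 genes of extracellular matrix turnover, 2 had an r of at least 0.8 with the CD3 score in PD-1cKO tumors and 2 at most -0.8. Over all genes these shares were 12.3% and 10.1%, so so few genes do not set this group apart. None passed either limit without tumors 4 and 8. Adamts15, a matrix protease gene, was 31.9 and 35.6 FPKM in tumors 4 and 8 and 2.39 to 18.2 in the others (r = 0.84, or 0.54 without tumors 4 and 8), and every PD-1cKO tumor lay above every WT tumor (at most 2.31). Timp3, an inhibitor of matrix proteases, was 49.0 and 54.1 in these tumors and 8.84 to 24.4 in the others (r = 0.93). Adamts4, another matrix protease gene, went the other way, with 5.08 and 3.83 against 8.97 to 11.99 (r = -0.92). Mmp12, of macrophages, was 604 FPKM in tumor 4 and 163 in tumor 8, with 51.0 to 263 in the others. Mmp9 was 23.3 and 13.0 in tumors 4 and 8 against 67.3 to 119 (r = -0.90, or -0.54 in the 8).

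Of 4 measured genes of acute inflammation, Il1a passed 0.8 (r = 0.82) and the other 3 were negative. Il1b was 0.862 FPKM in tumor 4, 2.01 in tumor 8 and 4.52 to 7.50 in the others. Arg1, of myeloid cells, was 432 FPKM in tumor 4 and 52.1 in tumor 8, so these tumors did not share every feature, and it was highest in tumor 3 (597). Mitochondrially encoded genes had none past either limit (median r 0.52), and their mean log2 value was 7.55 in tumor 9 and 4.61 in tumor 10. Of 46 measured genes that were high in cultured MC-38 cells, 7 passed 0.8 and 4 passed -0.8 (median r 0.24), near the 12.3% and 10.1% of all genes.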
